A study of Mus musculus with 24 samples.

Results

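Areg and Hbegf encode amphiregulin and heparin-binding EGF-like growth factor, 2 ligands of the epidermal growth factor (EGF) receptor family. Their rows were found by gene symbol in a table of 15737 genes from mouse basophils: Areg (ENSMUSG00000029378, on chromosome 5) and Hbegf (ENSMUSG00000024486, on chromosome 18), each with 1 row. Both were picked with their reads by genotype and time already known, so their levels and differences are given as a description, with standard errors and no p-value.

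The cells were basophils grown from bone marrow of TTP-KO mice, which lack tristetraprolin (TTP, encoded by Zfp36), and of wild-type (WT) mice. The labels name neither the TTP allele nor the age of the animals. Marrow was kept for 7 days in 0.3 ng/mL IL-3. On day 6, IgE against the hapten TNP (1 µg/mL) and 150 µM 4-thiouridine (s4U, taken up into newly made RNA) were added to the medium. CD49b+ cells were then enriched on magnetic beads and received TNP-coupled ovalbumin (TNP-OVA, 10 ng/mL) with s4U for 1.5 h. After 2 washes with no further antigen or s4U, TTP-KO cells and WT cells were taken at 0, 1, 2 and 4 h, with 3 libraries in each of the 8 groups. All 8 groups carried IgE and had met antigen, and no unstimulated group was analysed here. Nothing in the labels ties the 3 libraries of a group to separate mice or cultures. Standard errors and p-values therefore cover the spread among these libraries alone, and that spread may be technical. RNA was read as 3' tags. The values count reads with and without s4U together, and are called total RNA here in that sense alone. The share of each gene's RNA that carried s4U was not analysed here, and loss of RNA and new synthesis cannot be told apart in total RNA.

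Amphiregulin and heparin-binding EGF-like growth factor are made as membrane-anchored precursors. Metalloproteases of the ADAM family, chiefly ADAM17 with its iRhom partners, release the soluble ligand, which binds EGF receptors on neighbouring cells. Amphiregulin binds the EGF receptor itself and is a known mediator of tissue repair in type 2 immunity, with basophils among its sources. Heparin-binding EGF-like growth factor binds both the EGF receptor and ErbB4, and macrophages are a known source. TTP binds AU-rich stretches in the 3' untranslated region (3' UTR) of target RNAs and recruits the enzymes that shorten the poly(A) tail.

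The sites below show where the letters of the TTP motif lie in Areg and in the cytokine RNAs whose levels were most like it. They come from GENCODE M21 transcripts (GRCm38, not the build GRCm39 that the submitters name). Each is given 5' to 3' on the transcript strand, the only strand searched, with the core TATTTAT that defines the site, and any core overlapping it, in capitals. The stretch of Il4 ends in a further copy, left in lower case. Further cores of Cxcl2, in the stretches at bases 1084 to 1108 and 1438 to 1462, are not printed.

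Areg, bases 205 to 229: tttaagtgtTATTTATtttatagct

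Cxcl2, bases 876 to 900: gttcactTATTTATTTATctatgta

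Cxcl2, bases 894 to 918: ctatgTATTTATTTATTTATtaatt

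Ccl3, bases 224 to 248: atttgtgacTATTTATtctgaaaga

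Il4, bases 43 to 67: tatttttaaTATTTATatatttata

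The 3' UTR of Areg is 253 bases long and holds 1 core, at bases 214 to 220. Bases are counted from 1 at the first base after the stop codon. In Areg this core lies within the longer form TTATTTATT. Hbegf, with a 3' UTR of 1456 bases, holds 2 cores and 0 copies of the longer form. Of 15392 genes of the table with an annotated 3' UTR, 30.5% hold the core and 8.3% the longer form. Among 1231 genes within 25% of Areg's length, 7.2% hold the core and 1.5% the longer form. Among 2832 genes within 25% of Hbegf's length, 33.1% hold the core and 8.0% the longer form. These matches describe letters and not binding.

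Reads per library ranged from 8839260 to 25372890, and TTP-KO 4 h B and C were the shallowest. The 10 basophil markers were all measured, with summed levels of 31230 to 44590 CPM in TTP-KO libraries and 29790 to 44660 CPM in WT libraries. CPM here means reads for each 1000000 reads of a library, scaled between libraries with TMM factors. Zfp36, the targeted gene, gave reads in every TTP-KO library: 158 to 210 CPM in TTP-KO against 219 to 269 CPM in WT at 0 h, 36.0 to 58.5 against 104 to 147 at 1 h, 27.1 to 51.1 against 73.3 to 78.8 at 2 h, and 22.4 to 62.1 against 58.4 to 78.2 at 4 h. The edgeR adjusted p for Zfp36 was 0.796, 0.000116, 0.0652 and 0.0422 at the 4 times, in that order. Where the gene was disrupted is not stated and 3' tags read only its end, so Zfp36 reads are no check of the genotype here.

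Areg RNA was higher in TTP-KO than in WT cells at all 4 times, and in the first hour after the wash it moved in opposite directions. At 0 h Areg stood at 1092, 1210 and 1213 CPM in the TTP-KO libraries, against 817, 906 and 842 CPM in the WT libraries. At 1 h the TTP-KO libraries held 1918, 1983 and 1795 CPM of Areg, against 744, 608 and 754 CPM in WT. The TTP-KO libraries were thus all above their 0 h level at 1 h, while the WT libraries were all below theirs. The share of all genes that separate in this way between 0 and 1 h was not computed. At 2 h Areg was at 1319, 1128 and 1050 CPM in TTP-KO, against 518, 527 and 605 CPM in WT. At 4 h it was at 489, 529 and 554 CPM in TTP-KO, against 228, 236 and 286 CPM in WT. The genotypes did not overlap at any of the 4 times. As background, all 3 TTP-KO libraries lay above all 3 WT libraries for 6.87% of the 12936 genes tested at 0 h, 5.82% at 1 h, 6.13% at 2 h and 7.11% at 4 h.

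**Figure D1:**
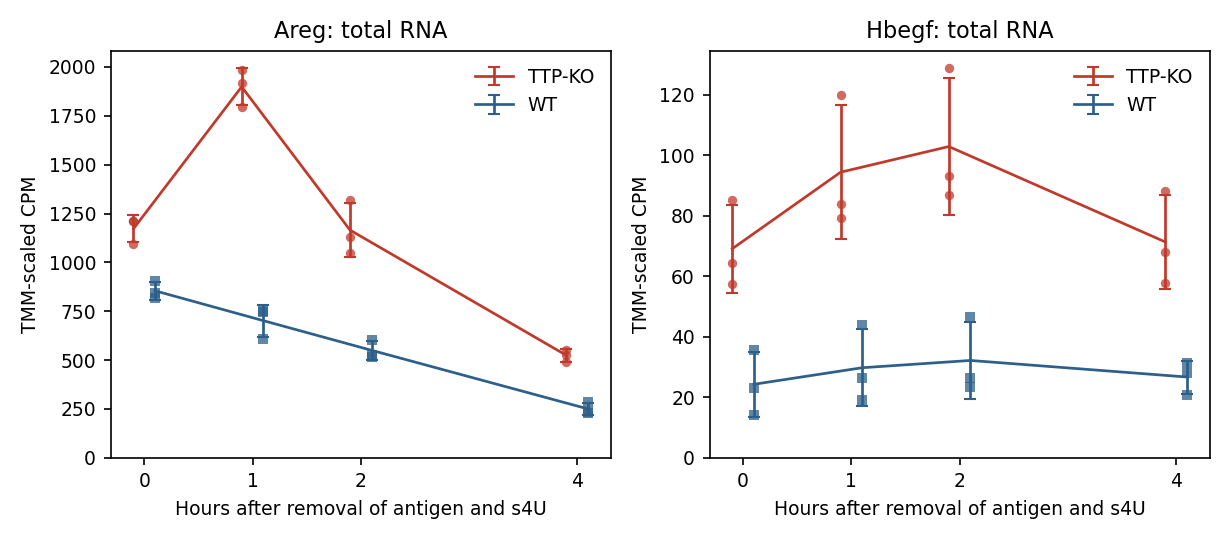
TMM-scaled CPM (linear axes from 0) of Areg, left, and Hbegf, right, against hours after removal of antigen and s4U. Points are libraries, lines join group means, and bars are SD of 3 libraries, with TTP-KO in red and WT in blue. Areg peaked at 1 h in TTP-KO, with a mean of 1899 CPM, and was lower at each later time in WT, while Hbegf in TTP-KO stayed above all WT libraries at every time.

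The gap in Areg between the genotypes was smallest at the end of the antigen pulse. On the log2 scale, the difference of TTP-KO minus WT was 0.45 ± 0.11 (SE, n = 3 each) at 0 h, and the group means stood at a ratio of 1.37. It was 1.44 ± 0.11 (a ratio of 2.71) at 1 h, 1.08 ± 0.11 (2.12) at 2 h and 1.07 ± 0.11 (2.10) at 4 h. The change of Areg from 0 to 1 h was 0.70 ± 0.11 in TTP-KO and -0.28 ± 0.11 in WT. From 1 to 2 h it was -0.70 ± 0.11 in TTP-KO and -0.35 ± 0.11 in WT. From 2 to 4 h the changes were within 1 SE of each other, at -1.15 ± 0.11 in TTP-KO and -1.14 ± 0.11 in WT. At 4 h Areg RNA was at 44.7% of its own 0 h mean in TTP-KO and at 29.3% in WT. With library size in place of TMM factors, all genes shifted upward over the chase (median log2 change from 0 to 4 h of 0.45 in TTP-KO and 0.38 in WT, against 0.08 and 0.06 with TMM). Areg then changed by -0.79 in TTP-KO and -1.45 in WT, so it still fell relative to other genes.

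Over the 8 groups, the mean of Areg was highest in TTP-KO at 1 h (1899 ± 95 CPM, SD, n = 3), followed by TTP-KO at 0 h (1172 ± 69) and TTP-KO at 2 h (1166 ± 138). WT at 0 h (855 ± 46), 1 h (702 ± 82) and 2 h (550 ± 48) came next, then TTP-KO at 4 h (524 ± 33) and WT at 4 h (250 ± 32). Neighbours in this order overlapped in their libraries in 2 places: TTP-KO 0 h with TTP-KO 2 h, and WT 2 h with TTP-KO 4 h. Areg RNA in TTP-KO cells at 4 h was thus within the range of libraries of WT cells at 2 h or just below it.

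Hbegf RNA was also higher in TTP-KO cells at every time, but its mean at 4 h was no lower than at 0 h in either genotype. At 0 h Hbegf stood at 85.4, 57.6 and 64.4 CPM in the TTP-KO libraries, against 14.2, 23.2 and 35.6 CPM in the WT libraries. At 1 h it was at 119.9, 84.0 and 79.3 CPM in TTP-KO, against 19.1, 26.3 and 44.0 CPM in WT. These levels show that the lowest TTP-KO library was above the highest WT library at both times, and that Hbegf varied more among libraries of 1 group than Areg did. At 2 h the TTP-KO libraries held 128.8, 86.9 and 93.0 CPM of Hbegf, against 23.5, 46.7 and 26.4 CPM in WT. At 4 h they held 88.3, 68.0 and 57.8 CPM, against 28.1, 31.4 and 20.7 CPM in WT. All 12 TTP-KO libraries, from 57.6 to 128.8 CPM, lay above all 12 WT libraries, from 14.2 to 46.7 CPM, whatever the time. The share of all genes that separate 12 from 12 libraries was not computed, so how unusual this is was not tested. In TTP-KO the library lettered A was the highest of the 3 at every time, and nothing in the labels says that a letter marks 1 animal or culture. The fewest reads behind an Hbegf value were 228, in WT 0 h A.

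The fitted difference in Hbegf was of similar size throughout. On the log2 scale, TTP-KO minus WT was 1.51 ± 0.30 (SE, n = 3 each; 2.84-fold) at 0 h, 1.67 ± 0.30 (3.17-fold) at 1 h, 1.68 ± 0.30 (3.20-fold) at 2 h and 1.42 ± 0.30 (2.67-fold) at 4 h. From 0 to 4 h Hbegf changed by 0.05 ± 0.29 in TTP-KO and by 0.13 ± 0.29 in WT, both within 1 SE. Its group means were in the order TTP-KO 2 h (102.9 ± 22.6 CPM, SD, n = 3), 1 h (94.4 ± 22.2), 4 h (71.4 ± 15.5) and 0 h (69.1 ± 14.5), then WT 2 h (32.2 ± 12.6), 1 h (29.8 ± 12.8), 4 h (26.7 ± 5.5) and 0 h (24.3 ± 10.8). Within each genotype every neighbour in this order overlapped with the next, and the only break lay between TTP-KO 0 h and WT 2 h. The SD was 20.9% to 23.5% of the mean in TTP-KO groups and 20.4% to 44.3% in WT groups, against 5.03% to 11.9% in TTP-KO and 5.35% to 12.7% in WT for Areg.

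Markers of macrophages moved with the genotype too. Of the 20 macrophage markers 18 were in the table, and their summed level was 2301 to 2354 CPM in TTP-KO against 914 to 982 CPM in WT at 0 h. It was 2074 to 2340 against 765 to 855 CPM at 1 h, 1681 to 2119 against 660 to 702 CPM at 2 h, and 1273 to 1675 against 577 to 622 CPM at 4 h. At the 4 times 9, 7, 8 and 8 of the 18 were higher in TTP-KO by edgeR adjusted p under 0.05, and 0 were lower. The median log2 difference of the 18 was 2.34, 1.56, 2.10 and 2.08, larger than that of Hbegf at 0, 2 and 4 h. Of all 12936 genes, 0.448%, 0.402%, 0.410% and 0.943% were called higher and 0.0773%, 0.100%, 0.108% and 0.881% lower at those times. The defining markers Csf1r (mean 101 CPM in TTP-KO, 40.3 CPM in WT) and Adgre1 (74.1 and 69.8 CPM) were present in both genotypes, and Marco and Cd163 were not among the genes analysed. In a bulk sample, fewer cells of a type and less RNA per cell cannot be told apart.

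The ratio of TTP-KO to WT means of the macrophage sum was 2.46, 2.73, 2.71 and 2.38 at 0, 1, 2 and 4 h, beside 2.84, 3.17, 3.20 and 2.67 for Hbegf and 1.37, 2.71, 2.12 and 2.10 for Areg. Lyz2, the most abundant macrophage marker, carried much of the sum (805 CPM in TTP-KO and 352 CPM in WT, means of all times), and without it the ratio was 2.9, 2.82, 2.87 and 2.63. The basophil sum had ratios of 0.99, 1.02, 1.08 and 1.04. Expressed per 1000 CPM of macrophage markers, Hbegf was at 24.5 to 37.1 in TTP-KO and 14.4 to 37.3 in WT at 0 h, 35.9 to 51.2 and 24.9 to 54.5 at 1 h, 43.9 to 72.2 and 35.6 to 66.5 at 2 h, and 34.5 to 65.1 and 33.3 to 51.8 at 4 h. On this scale the genotypes overlapped for Hbegf at all 4 times, with Lyz2 in the sum or without it. With Lyz2 in the sum, the TTP-KO mean was the higher at each time. It was 29.7 against 25.7 in WT at 0 h, 42.6 against 36.7 at 1 h, 55.9 against 46.6 at 2 h and 51 against 44.6 at 4 h. These means were not computed without Lyz2, where the sum's ratio at 0 h (2.9) was above that of Hbegf (2.84). For Areg, with Lyz2 in the sum, the level per 1000 CPM of macrophage markers was 475 to 517 in TTP-KO and 832 to 991 in WT at 0 h. At 1 h it was 813 to 956 and 710 to 973. It was 496 to 739 and 751 to 866 at 2 h, and 331 to 415 and 390 to 461 at 4 h, so Areg per macrophage marker was lower in TTP-KO at 0 and 2 h and overlapped at 1 and 4 h. Per 1000 CPM of basophil markers, Areg was higher in TTP-KO at every time, for example 40.3 to 44.5 in TTP-KO against 14.1 to 17.4 in WT at 1 h. Hbegf on the basophil scale was also higher in TTP-KO with no overlap at any time. It was 1.31 to 1.97 against 0.322 to 0.831 in WT at 0 h, and 1.79 to 2.83 against 0.695 to 1.05 at 4 h. Because the basophil sum differed little between the genotypes, this scale largely repeats the separation already seen in CPM. The part of macrophage RNA in either gene's level was not tested.

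**Figure D2:**
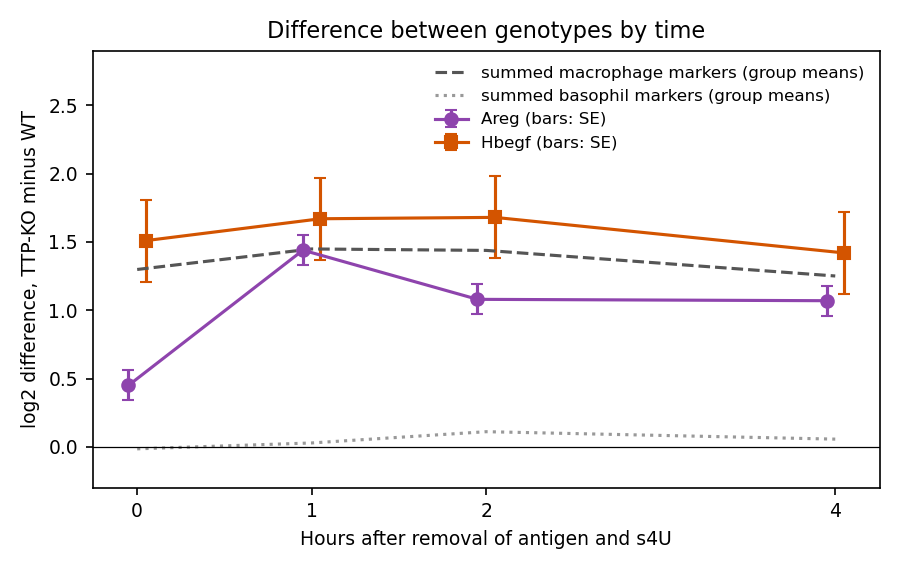
Log2 difference, TTP-KO minus WT, against hours after removal of antigen and s4U, for Areg (purple, SE bars) and Hbegf (orange, SE bars) from the edgeR fit over 24 libraries, with the log2 ratio of group means of the summed macrophage (dashed) and basophil (dotted) markers. The summed macrophage markers had ratios of 2.46, 2.73, 2.71 and 2.38 beside 2.84, 3.17, 3.20 and 2.67 for Hbegf, Areg lay at 0.45 at 0 h and 1.44 at 1 h, and the basophil sum stayed near 0.

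Markers of other cell types were also present. Mast cell markers summed to 121 to 166 CPM in TTP-KO and 173 to 293 CPM in WT over all times, so every TTP-KO library lay below every WT library. NK and T cell markers summed to 2.56 to 16.1 and 4.95 to 13.7 CPM, and dendritic cell markers to 0 to 11.1 and 3.20 to 17.6 CPM. Neutrophil markers summed to 3096 to 4306 CPM in TTP-KO and 2399 to 4677 CPM in WT. At 0 h their sum was lower in TTP-KO, at 3666 to 3925 against 4249 to 4677 CPM. At 4 h it was higher in TTP-KO, at 3314 to 3450 against 2399 to 2651 CPM. The genotypes overlapped at 1 and 2 h. Of the 8 neutrophil markers, 2 were higher in TTP-KO at 4 h by edgeR adjusted p under 0.05. The part of these other cell types in the levels of Areg and Hbegf was not tested.

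The genes whose level over the 8 groups was most like that of each ligand differed between the ligands. Among 2216 genes with a mean of at least 20 CPM and a range of at least 1 on the log2 scale, Pearson's r of log2(CPM + 1) over the 8 group means was highest with Areg for Cxcl2, a neutrophil attractant (0.975), Ccl3, a macrophage inflammatory chemokine (0.974), Il4, the type 2 cytokine (0.953), Ifi30, a lysosomal thiol reductase (0.939) and Ttc39b (0.933). Like Areg, Il4 was highest in TTP-KO at 1 h, with a mean of 6210 CPM against 3190 CPM in WT. For Hbegf the 5 with the highest r included the lysosomal protease genes Ctss (0.948) and Ctsz (0.945), S100a4, a calcium-binding protein gene (0.947) and Gpnmb, a membrane glycoprotein gene of macrophages (0.941). Ctss, which is also in the macrophage list above, averaged 251 CPM in TTP-KO and 39.1 CPM in WT at 1 h. Areg and Hbegf themselves had r = 0.634. These values are over 8 points that share libraries and 2 genotypes, so they describe these groups and carry no test.

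**Figure D3:**
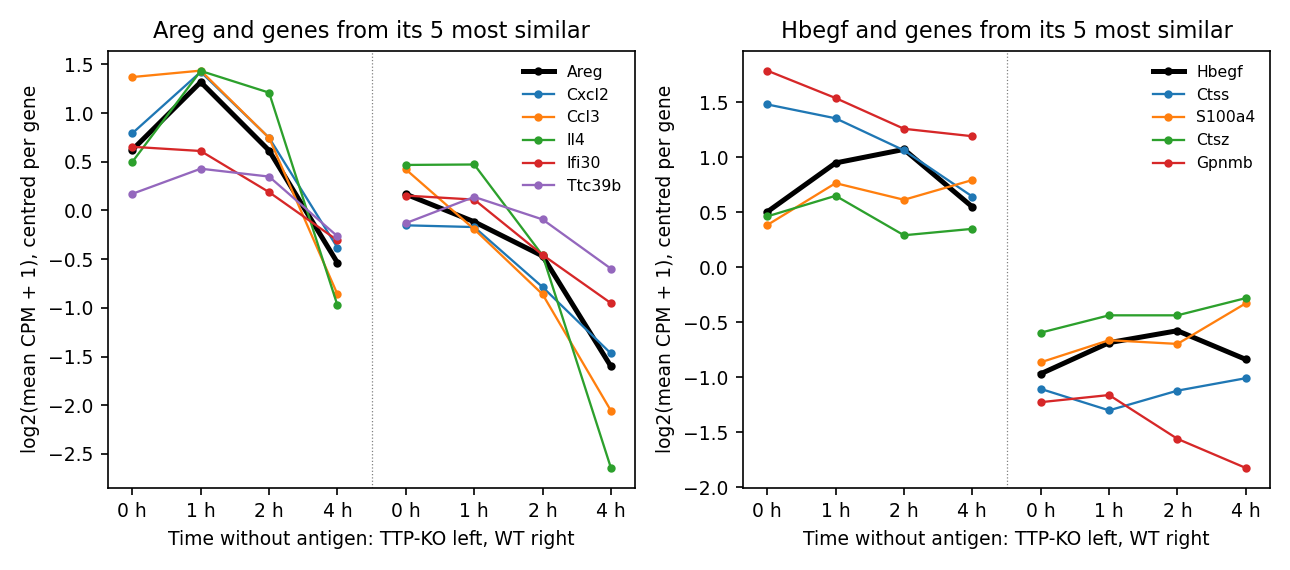
Centred log2(mean CPM + 1) by group for Areg (left, black) and Hbegf (right, black), with genes from its 5 most similar in colour. In each panel the 4 times in TTP-KO are left of the 4 times in WT. The genes like Areg fell toward 4 h in both genotypes, and those like Hbegf were separated mainly by genotype.

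The cores of the TTP motif were unevenly spread over these genes. Cxcl2 holds 7 copies of the core, 4 of the longer form, and Ttc39b holds 4 and 2. Ccl3 holds 1 core and Il4 2 cores, with 0 of the longer form in either, while Ctss, S100a4, Ctsz and Gpnmb hold 0 cores. For Ifi30 no 3' UTR was matched. The 3' UTRs also differ in length. Those of Cxcl2, Ttc39b, Ccl3 and Il4 have 1494, 6834, 409 and 104 bases. Those of Ctss, S100a4, Ctsz and Gpnmb have 218, 141, 379 and 1868 bases. Of genes within 25% of Areg's 253 bases only 7.2% hold the core, so 0 cores is the usual count at such a length. Among Ctss, S100a4, Ctsz and Gpnmb, only Ctss has a length in that range. The genes were picked by their levels and differ in length, so these counts are a description.

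The rest of the EGF system was read from lists of 54 genes: 9 other ligands, 4 receptors, 15 sheddases and partners, 14 adaptors and kinases of the ERK cascade, and 12 feedback regulators. Of these 43 passed the filter on low counts and were tested. Of the ligands, 3 were tested: Nrg1, which encodes neuregulin 1 and averaged 5.29 CPM over all libraries, Btc, which encodes betacellulin (4.05 CPM), and Nrg4 (0.216 CPM). Egf, Tgfa, Ereg, Epgn, Nrg2 and Nrg3 did not pass the filter. Nrg1 averaged 16.2 ± 7.9 CPM in TTP-KO and 4.99 ± 1.9 CPM in WT at 4 h, with an edgeR adjusted p of 0.675. The receptor genes lay under the 5 CPM set for naming and, like Btc and Nrg4, are given by a choice made after their values were seen. Egfr averaged 0.00925 CPM, Erbb2 0.00659 CPM, Erbb4 0.0961 CPM and Erbb3, the only one tested, 1.21 CPM.

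None of the 43 tested genes differed between TTP-KO and WT at 0, 1 or 2 h by edgeR adjusted p under 0.05, and 1 did at 4 h. As background, 0.526% of the 12936 genes were called at 0 h, 0.502% at 1 h, 0.518% at 2 h and 1.82% at 4 h. The gene called was Rhbdf2, which encodes the ADAM17 partner iRhom2, at 82.7 ± 31 CPM in TTP-KO against 133 ± 1.6 CPM in WT (SD, n = 3; log2 difference -0.68 ± 0.19, edgeR adjusted p = 0.0381). The call was lost under 8 of 11 alternatives, among them leaving out TTP-KO 4 h B, TTP-KO 4 h C, or any 1 WT library, with an edgeR adjusted p of up to 0.968. The gene of the main sheddase, Adam17, averaged 102 ± 11 CPM in TTP-KO and 125 ± 7.2 CPM in WT at 0 h, and 80.4 ± 17 and 86.5 ± 21 CPM at 4 h. Adam10, which encodes a related sheddase, averaged 99.0 ± 6.8 and 103 ± 3.9 CPM at 0 h, and 81.7 ± 21 and 116 ± 18 CPM at 4 h. Neither passed the test between the genotypes at any time in the fit reported. Without TTP-KO 4 h A, Adam10 was called lower in TTP-KO at 4 h (log2 difference -0.67, edgeR adjusted p = 0.0474).

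Over the 4 h without antigen, several of these genes fell in both genotypes. From 0 to 4 h 4 of the 43 tested genes rose and 10 fell in TTP-KO, and 2 rose and 8 fell in WT. That is 32.6% and 23.3% of those tested, where 18.1% of all genes were called in TTP-KO (7.45% higher, 10.6% lower) and 16.7% in WT (6.76% higher, 9.97% lower). With library size in place of TMM factors the balance turned, with 10 rising and 7 falling in TTP-KO and 7 rising and 6 falling in WT. All genes turned with it, at 2156 higher and 818 lower in TTP-KO and 1831 and 748 in WT, against 964 and 1372 in TTP-KO and 875 and 1290 in WT with TMM. With TMM, the median log2 change of the 43 was -0.17 in TTP-KO and 0.04 in WT, and that of all genes 0.08 and 0.06. Feedback genes were among those that fell. Spry2, which encodes an inhibitor of receptor tyrosine kinase signalling, changed by -2.21 ± 0.14 in TTP-KO (631 ± 28 CPM at 0 h, 136 ± 8.2 CPM at 4 h) and -2.32 ± 0.14 in WT (546 ± 17 and 109 ± 20 CPM), with edgeR adjusted p = 7.47e-18 and 1.56e-18. Errfi1, an inhibitor that binds the EGF receptor, changed by -2.25 ± 0.47 and -2.58 ± 0.48, and the ERK phosphatase gene Dusp6 by -0.42 ± 0.10 and -0.84 ± 0.10. The fall of Dusp6 in TTP-KO was not called with library size in place of TMM factors (log2 -0.05).

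Of the sheddases and partners, Adam8 changed by -1.15 ± 0.10 in TTP-KO and -1.16 ± 0.10 in WT, and Rhbdf2 by -1.44 ± 0.19 and -0.90 ± 0.19. Cd9, which encodes a tetraspanin that associates with the precursor of heparin-binding EGF-like growth factor, rose in TTP-KO (0.49 ± 0.10, edgeR adjusted p = 0.000232, lost without TTP-KO 4 h B and C). In WT it changed by 0.16 ± 0.10 (edgeR adjusted p = 0.30). In the cascade, Grb2, an adaptor gene, rose in both (0.55 ± 0.13 in TTP-KO, 0.69 ± 0.13 in WT). The call of Grb2 in TTP-KO was not called without TTP-KO 4 h B and C. Spry2, Errfi1, Adam8 and Rhbdf2 were called in both genotypes under every alternative counted, and blocking on the column letter was not among these. Cd44 (-0.31 and -0.30), which encodes a hyaluronan receptor, held under 3 of 11 alternatives in TTP-KO and 2 of 10 in WT. With library size in place of TMM factors, Cd44 changed by 0.05 in TTP-KO and 0.02 in WT.

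Most of the other called genes passed in 1 genotype and not in the other. Hras, a GTPase gene, rose in TTP-KO (1.43 ± 0.30, edgeR adjusted p = 0.000253) and changed by 0.55 ± 0.29 in WT (0.216). Sos2, which encodes an exchange factor that loads such GTPases, fell in TTP-KO (-1.25 ± 0.27, edgeR adjusted p = 0.000408) and changed by -0.45 ± 0.27 in WT (0.264). The kinase gene Braf fell in both (-1.79 ± 0.41 in TTP-KO, -1.16 ± 0.40 in WT), though in WT the call held under 4 of 10 alternatives. Spred2, which encodes an inhibitor of the cascade, fell in TTP-KO (-1.11 ± 0.37, called under 5 of 11 alternatives), and Frmd8, which encodes a partner of the iRhoms, rose in WT (1.05 ± 0.31, called under 8 of 10, and not without WT 0 h A). Adam19 also passed in TTP-KO, and was called under 6 of 10 alternatives. Its mean over all libraries was only 3.82 CPM, under the 5 CPM set for naming.

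Adam17 changed by -0.35 ± 0.20 in TTP-KO and -0.53 ± 0.20 in WT from 0 to 4 h, with edgeR adjusted p of 0.242 and 0.0684. Adam10 changed by -0.28 ± 0.18 and 0.17 ± 0.18. Adam9, Adam15, Timp3 (an inhibitor of ADAM17), Cd82 and Nrdc did not pass in either genotype, with log2 changes from -0.17 to 0.27 in TTP-KO and from -0.16 to 0.31 in WT. Nrg1 changed by 3.76 ± 1.41 in TTP-KO (edgeR adjusted p = 0.0552, called under 6 of 11 alternatives) and by 1.57 ± 1.29 in WT (0.466). Whether any of these changes differed between the genotypes was not tested.

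**Figure D4:**
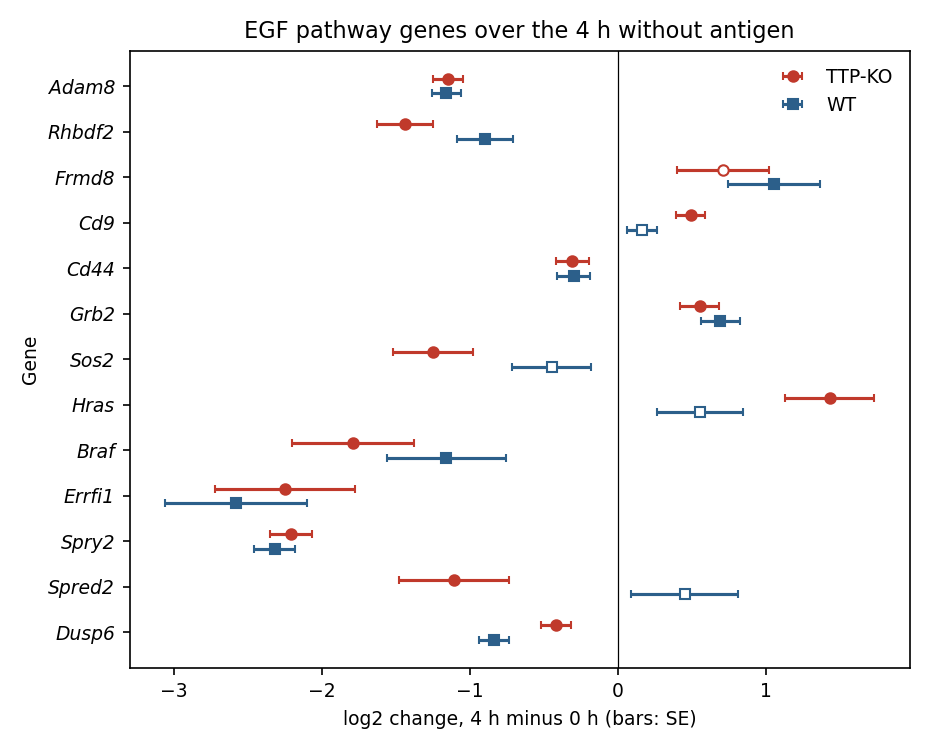
Log2 change from 0 to 4 h with SE bars for EGF pathway genes averaging at least 5 CPM and called in either genotype, with TTP-KO (red circles) above WT (blue squares) for each gene. Filled symbols passed the edgeR adjusted p and open ones did not. Spry2 and Errfi1 fell by more than 2 on the log2 scale in both genotypes.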

How the data were processed

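Per the file headers, the deposited table holds reads per gene and library. These are expected counts, not normalized by the authors, and 12.8% of the values were not whole (tolerance 1e-06). They were rounded. GRCm39, SAMtools, STAR 2.7.10a and cutadapt 3.5 appear in the submitters' processing notes without role or order, and GRAND-SLAM and grandR in the design text. Annotation and filters: not given in the sources used here. Columns carry letters and the labels numbers, and nothing ties them, so a column stands for 1 library within its group. Another 144 columns of per-sample values were not used, and no half-life is given.

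In R 4.3.3, edgeR 4.0.16 fitted 1 quasi-likelihood model with a mean for each of 8 groups over 24 libraries, with TMM factors and filterByExpr (12936 genes), and Benjamini-Hochberg adjusted p under 0.05 over all genes as the call. CPM are TMM-scaled. The fit was tested on simulated data. Libraries of 1 group differed by a chi-square per degree of freedom of 30.3 to 78.8, so no library repeated another. Precision follows depth (8839260 to 25372890 reads).

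The members and lists were chosen with earlier results of these data known. Genes named were chosen by a rule: Areg, Hbegf, Zfp36, EGF pathway genes of at least 5 CPM (in the cascade and feedback lists, those called), and the 5 genes most like each ligand. Some genes under this rule are not reported here. The 3' UTRs are the longest of each gene in GENCODE M21, matched by gene ID. Of the lists, Adam12, Lrig1, Marco, Cd163, Mrgprb2 and Gzma were not analysed here. Alternatives were library size only, no filter, DESeq2 1.42.0, only the groups compared, leaving out each library, and, added after seeing the data, leaving out TTP-KO 4 h B and C and blocking on the column letter. Counts of alternatives given for single genes leave out the blocked fits.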

Additional observations from a re-analysis of the deposited data

Results flagged for a closer look

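Areg moved in opposite directions in the 2 genotypes between 0 and 1 h after the wash: every TTP-KO library at 1 h was above every TTP-KO library at 0 h, and every WT library at 1 h was below every WT library at 0 h. The change in TTP-KO exceeded that in WT by 0.98 ± 0.16 on the log2 scale (SE). This difference was not tested, because Areg was chosen with these values known. The same condition was checked over 4 intervals in 45 genes (both ligands, EGF pathway genes of at least 5 CPM and the genes most like either ligand), and no other met it. The share of all tested genes that meet it was not computed, so how unusual it is was not tested. The means of Ccl3 also moved apart, at 38400 CPM at 0 h and 40200 CPM at 1 h in TTP-KO and 19900 and 13000 CPM in WT, but not in every library.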

How the results depend on the processing

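Of 140 alternative values for the log2 differences of Areg and Hbegf, 138 moved by less than the spread between libraries. This spread was the SD of a difference between single libraries, 0.115 to 0.208 for Areg and 0.419 to 0.703 for Hbegf. Leaving out 1 library can hardly exceed it, so the count is a weak check. Hbegf at 0 h moved from 1.51 to 1.89 without WT 0 h C and was still counted as unmoved. The values that moved further were the change of Areg from 0 to 4 h with library size only, -0.79 in TTP-KO and -1.45 in WT, where the scaling shifted all genes. Leaving out 1 library gave -0.12 to 0.23 for the change of Hbegf from 0 to 4 h in TTP-KO and -0.14 to 0.52 in WT, so its sign is not set by these data. The count of genes called between the genotypes was less stable. It was 227 with DESeq2, 123 with no filter and 116 with only the groups compared at 0 h (68 in the fit reported). At 1 h it was 196 with DESeq2 and 108 with no filter (65), and at 2 h 230, 127 and, with only the groups compared, 41 (67). At 4 h (236) it was 491 with DESeq2, 47 with only the groups compared and 130 without TTP-KO 4 h B and C, a fit that leaves 1 library in that group and assumes it varies like the others. Leaving out 1 library gave 137 to 431 at 4 h: 431 without TTP-KO 4 h A, 142 without B and 137 without C. For the EGF pathway, DESeq2 called 1 gene at 0 h (Adam19). At 4 h 0 were called with library size only, with only the groups compared and without TTP-KO 4 h B and C, and 0 to 2 when 1 library was left out. The causes were not tested. The replicate numbers of the labels could not be used as a block because the columns carry letters that nothing ties to them. Blocking on the letter instead (added after seeing the data) kept each count of calls within 1.5 times, with 75, 76, 72 and 240 genes at 0, 1, 2 and 4 h and 16 and 9 EGF pathway genes over the chase in TTP-KO and WT. Blocked on the letter within each genotype, Hbegf changed by 0.04 ± 0.25 from 0 to 4 h in TTP-KO and by 0.24 ± 0.26 in WT. As a check of such a replicate block, same-lettered libraries of different times correlated in their deviations from the group means at a median r of -0.01 in TTP-KO and 0.01 in WT, over 5299 genes, against 0.01 and 0.00 for different letters.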
